A study of Mus musculus with 9 samples.

Results

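Collagen chain genes were taken from the gene count table by name, as the symbols made of Col, a type number, a and a chain number. The name pattern matched 43 of the 23358 entries, and 3 of these (Col2a1, Col10a1 and Col11a1) were left out, which gave 40 genes. Of these 40, 32 passed the filter on low counts and were tested, and 23 had a mean of at least 2 CPM (counts per 1e+06 counts of the library) in at least 1 group. The study sequenced the RNA of 9 cultures of mesenchymal stem cells (MSC), which are multipotent cells of the marrow stroma, here from adult C57BL/6 mice and at passage 4 to 10. The GSK126 group had non-targeting siRNA with 5 µM GSK126, an inhibitor of Ezh2, the enzyme that methylates lysine 27 of histone H3. The siBcat group had siRNA against beta-catenin, the product of Ctnnb1, which binds cadherins and carries Wnt signals to the nucleus. The siCTL group had non-targeting siRNA alone. All 3 groups were kept in osteogenic medium with ascorbic acid, a cofactor of collagen hydroxylation, and were lysed on day 4 after siRNA was added. Each group has 3 libraries, called biological replicates in the labels, which do not say what the replicates were drawn from, so the p-values measure the spread between these cultures. The treatment label of the siBcat samples also lists 5 µM GSK126, whereas their titles, source names and the series text give no inhibitor, and the groups follow the titles.

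Collagens are secreted proteins in which chains wind into a triple helix. Fibrillar collagens (types I, III and V among them) form the cable-like fibrils that give bone and connective tissue their tensile strength, type IV collagen forms the sheet of basement membranes, and type VI forms beaded filaments around cells. Other members sit on fibril surfaces (the FACIT collagens), form hexagonal lattices (type VIII), anchor epithelia (type VII) or carry an end that can be released as a signalling fragment (types XV and XVIII, the multiplexins). Marrow stromal cells and the osteoblasts that arise from them are major makers of type I collagen.

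Summed counts were 43062026 to 55898774 in GSK126, 42324200 to 50327938 in siBcat and 44506814 to 46516898 in siCTL. All counts in the table were even, so a fragment may have been counted as 2, and counts of a few units hold less information than they seem to. Ctnnb1 had 19.1 to 19.3 CPM in siBcat libraries, against 906 to 950 CPM in GSK126 and 854 to 879 CPM in siCTL libraries. Ezh2, whose enzyme GSK126 inhibits without removing its transcript, had 26.0 to 29.3 CPM in GSK126, 27.1 to 28.0 CPM in siBcat and 23.1 to 24.4 CPM in siCTL. Its transcript was called higher than in siCTL under both treatments. The log2 fold change was 0.23 ± 0.06 in GSK126 (edgeR adjusted p = 0.0169) and 0.21 ± 0.06 in siBcat (adjusted p = 0.0195). Of 10 stromal markers, 9 were detected at a testable level and Thy1 had 0 counts in each library. Their summed level was 9014 to 9748 CPM in GSK126, 4446 to 4468 CPM in siBcat and 5555 to 5626 CPM in siCTL, and most of it was Cxcl12, which averaged 8002, 2396 and 3750 CPM in those groups. The other stromal markers differed widely in level. In siCTL, Pdgfra, Pdgfrb, Cd44 and Prrx1 averaged 249.5, 813.7, 149.9 and 601.1 CPM, and Ly6a and Eng 21.65 and 7.34 CPM. Nt5e and Lepr were low, at 1.30 and 0.732 CPM in siCTL. Ptprc and Emr1 (haematopoietic cells and macrophages), Epcam and Krt14 (epithelium), Sox10 (Schwann cells), Myog (skeletal muscle) and Cytl1 (chondrocytes) had 0 counts in each library. Summed levels of these lists stayed at or below 3.81 CPM for endothelium, macrophages, epithelium and neural cells. The skeletal muscle list had 46.6 to 55.6 CPM in GSK126, 55.5 to 60.2 CPM in siBcat and 45.7 to 51.2 CPM in siCTL, nearly all of it Des and Acta1, which other contractile cells also express. Acta1 averaged 7.57, 10.4 and 1.77 CPM in GSK126, siBcat and siCTL, with 0 to 2 counts of Myod1 and Ckm per library. The chondrocyte list had 23.0 to 28.3, 26.7 to 30.7 and 20.7 to 26.6 CPM in GSK126, siBcat and siCTL, with 0 to 10 counts of Acan per library. The osteoblast list had 101 to 120, 117 to 123 and 123 to 134 CPM in GSK126, siBcat and siCTL, with 0 to 10 counts of Bglap per library. Its members differed: in GSK126 against siCTL, Ibsp (2.16 ± 0.40 on the log2 scale, edgeR adjusted p = 0.00169, below 1 CPM) and Alpl (0.54 ± 0.10, adjusted p = 0.00134) were higher and Dmp1 (-0.51 ± 0.09, adjusted p = 0.00104) was lower. Between siBcat and siCTL, Dmp1 (0.30 ± 0.09, adjusted p = 0.0158) was higher in siBcat, and Runx2 (-0.30 ± 0.08, adjusted p = 0.0087) and Alpl (-0.29 ± 0.10, adjusted p = 0.0365) were lower. Genes at a testable level were 2 of 6 endothelial, 4 of 7 haematopoietic, 2 of 5 muscle, 1 of 5 epithelial, 4 of 5 neural, 3 of 5 chondrocyte and 5 of 6 osteoblast markers, and their part in the collagen values was not tested.

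The 40 genes took 4.89 to 5.44% of the counts in GSK126 libraries, 5.31 to 5.70% in siBcat libraries and 5.34 to 5.94% in siCTL libraries. These ranges overlapped, and the exact two-sided permutation p was 0.3 for GSK126 against siCTL, 0.3 for siBcat against siCTL and 0.4 for siBcat against GSK126. The group means were 5.24%, 5.50% and 5.73% in GSK126, siBcat and siCTL. In bulk cultures, fewer cells making a chain and less of its RNA per cell cannot be told apart.

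Under GSK126, the fibrillar chain Col3a1, the beaded-filament chains Col6a1, Col6a2 and Col6a3, and the lattice chain Col8a1 fell. The type V chain Col5a2 also fell, while Col8a2, Col28a1 and the low-level chains Col27a1 and Col14a1 rose. In this comparison 10 of the 32 tested chains passed edgeR's quasi-likelihood test at an adjusted p under 0.05, 4 higher and 6 lower, beside 25% of all 13240 genes tested (14.3% higher and 10.7% lower). The median log2 fold change of the 32 was 0.04, beside 0.01 for all genes tested, and the libraries of GSK126 and siCTL did not overlap for 10 of them, beside 42.1% of all genes. The share of chains called was thus 31.2%, not far above that of all genes.

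Under siBcat, the type V chains Col5a1, Col5a2 and Col5a3, the main type IV chains Col4a1 and Col4a2, Col6a2 and above all Col15a1 rose, while Col3a1, Col1a2, Col8a1, Col4a5, Col16a1 and Col18a1 fell. Of the 32 chains, 17 were called, 9 higher and 8 lower, or 53.1% beside 35.2% of all genes (17.7% higher and 17.5% lower). Their median log2 fold change was -0.01, beside 0.00 for all genes, and 21 chains did not overlap between siBcat and siCTL, beside 55.2% of all genes.

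Set directly against GSK126, siBcat had 11 chains higher and 8 lower, 59.4% of the 32 beside 41.2% of all genes (19.3% higher and 21.9% lower). Scaling by library size alone turned this split to 10 higher and 11 lower. Over all genes, the higher calls made up 46.8% of the calls of this comparison, 33.4% with library size scaling and 60.0% with the trend on coding length removed. For GSK126 against siCTL they made up 57.1%, and 40.8% with that trend removed. The trend was fitted to deviations from the mean of all 9 libraries, so its removal also takes out group differences that follow length. The median log2 fold change of the 32 chains in siBcat against GSK126 was -0.28, beside -0.01 for all genes. It was 0.28 for the 23 chains with at least 2 CPM in a group, 11 of them higher and 6 lower. A chain enters these 23 when any 1 group mean reaches 2 CPM. Col8a2 entered through GSK126 alone and Col20a1 through siBcat alone, so the subset depends on the compared values. No value for all genes at that level was computed. Of the 32, 20 chains did not overlap, beside 52.5% of all genes. Both comparisons with siCTL share the same 3 control libraries, so their calls are not independent of each other.

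**Figure D1:**
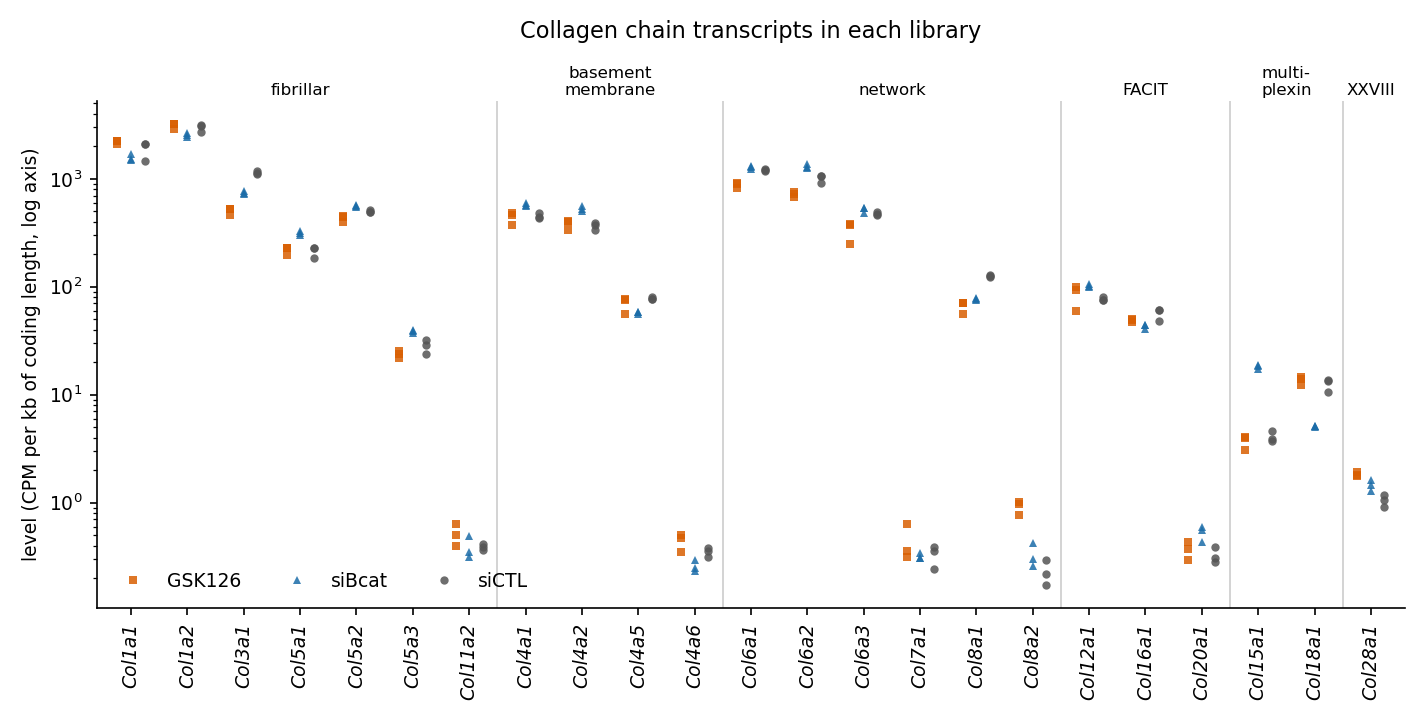
Levels of the 23 collagen chains with at least 2 CPM in a group mean, as CPM per kb of coding length on a log axis, with 1 point per library and 3 libraries each of GSK126, siBcat and siCTL. Col1a2 is highest with a mean of 3113 CPM per kb in GSK126, Col3a1 is lowest in GSK126, and Col15a1 stands at about 18 CPM per kb in siBcat against about 4 in the other groups.

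**Figure D2:**
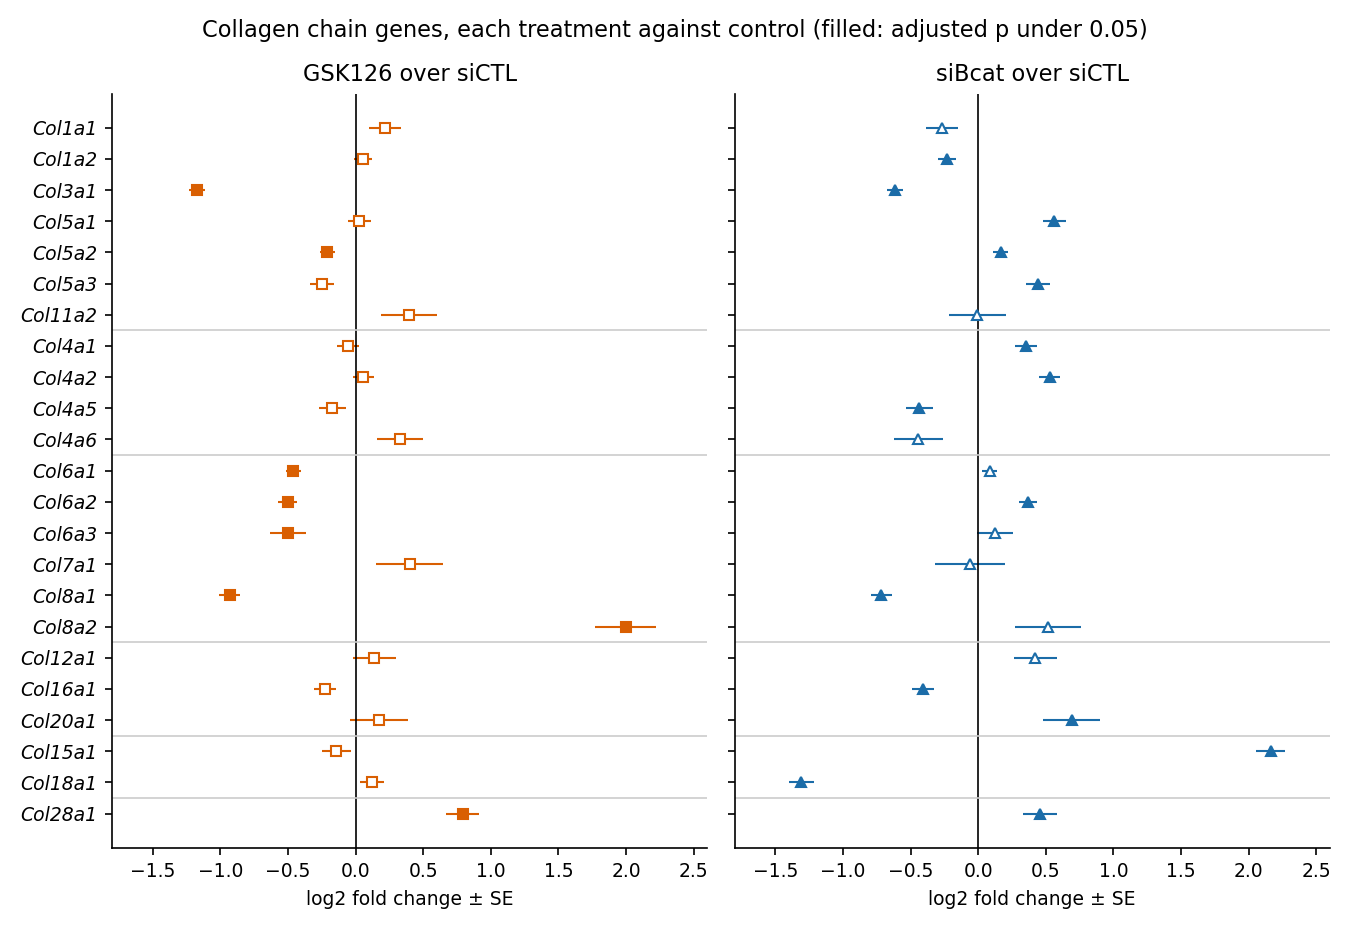
Log2 fold change (edgeR) with its SE for the same 23 chains, GSK126 over siCTL on the left and siBcat over siCTL on the right, with 3 libraries per group and filled symbols for an adjusted p under 0.05. Col3a1 and Col8a1 lie left of 0 in both panels, Col6a1 and Col6a3 are called in the left panel alone, and Col15a1 and Col18a1 lie far apart in the right panel alone.

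Type I collagen, the main protein of bone matrix, is built from the Col1a1 and Col1a2 chains, and both were the most abundant collagen transcripts per length. Col1a2 (chromosome 6, 4504814 to 4541544, plus strand) averaged 3113 CPM per kb in GSK126, 2549 in siBcat and 2991 in siCTL. Its CPM were 16620, 16430 and 14980 in GSK126 libraries, 13620, 12500 and 13200 in siBcat libraries and 15970, 16090 and 14090 in siCTL libraries. Each siBcat library lay below each library of the other groups. Col1a2 fell in siBcat against siCTL (log2 fold change -0.23 ± 0.07 SE, edgeR adjusted p = 0.0175) and against GSK126 (-0.29 ± 0.07, adjusted p = 0.00408), and in GSK126 against siCTL its log2 fold change was 0.06 ± 0.07 (adjusted p = 0.562). The fall against siCTL lost its call without siBcat replicate 2 (adjusted p = 0.0826), siBcat replicate 3 (0.0651), siCTL replicate 1 (0.0913) or siCTL replicate 2 (0.0672).

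Col1a1 (chromosome 11, 94936224 to 94953042, plus strand) had 10520, 10620 and 9841 CPM in GSK126, 7918, 6976 and 7225 CPM in siBcat and 9877, 9812 and 6924 CPM in siCTL. The siCTL libraries were split: replicate 3 lay below each siBcat library, and the others above. Col1a1 was lower in siBcat than in GSK126 (log2 fold change -0.49 ± 0.12, edgeR adjusted p = 0.00679), a call lost without GSK126 replicate 3 (adjusted p = 0.0563). Against siCTL neither treatment was called, with 0.22 ± 0.12 for GSK126 (adjusted p = 0.198) and -0.27 ± 0.12 for siBcat (adjusted p = 0.103). Without siCTL replicate 3 the siBcat value was -0.42 with an adjusted p of 0.000721, and with scaling by library size alone it was -0.30 with an adjusted p of 0.0422.

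Type III collagen is a homotrimer of Col3a1 chains that forms thinner fibrils mixed with type I in soft connective tissue. Col3a1 (chromosome 1, 45311538 to 45349706, plus strand) had 2943, 2904 and 2575 CPM in GSK126, 4245, 4035 and 4098 CPM in siBcat and 6299, 6525 and 6163 CPM in siCTL. The 3 groups did not overlap, with GSK126 lowest, siBcat between and siCTL highest. Col3a1 was 2.25-fold lower in GSK126 than in siCTL (log2 fold change -1.17 ± 0.06, edgeR adjusted p = 7.52e-08) and 1.53-fold lower in siBcat (-0.62 ± 0.06, adjusted p = 5.09e-06). Between treatments it was 1.47-fold higher in siBcat than in GSK126 (0.56 ± 0.06, adjusted p = 9.39e-06). Each of these calls held in all 19 alternatives. Col3a1 ends 24614 bases from the end of Col5a2, which lies tail to tail with it on the other strand, and Col5a2 moved by 0.21 or less on the log2 scale against siCTL.

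The upstream sequences of Col1a2 and Col3a1 are shown because these fibrillar chains lie far apart in their response to GSK126. Each run is the 250 bases before the RefSeq start in build GRCm38.p6 (the mm10 assembly), read 5′ to 3′ on the strand of the gene. Capitals mark matches on either strand to 3 motifs. These are the TATA box, searched as TATAAA, the CCAAT box, searched by those letters, and the GC box, searched as GGGCGG. Matches may overlap each other.
Col1a2, chr6:4505368-4505617, plus strand: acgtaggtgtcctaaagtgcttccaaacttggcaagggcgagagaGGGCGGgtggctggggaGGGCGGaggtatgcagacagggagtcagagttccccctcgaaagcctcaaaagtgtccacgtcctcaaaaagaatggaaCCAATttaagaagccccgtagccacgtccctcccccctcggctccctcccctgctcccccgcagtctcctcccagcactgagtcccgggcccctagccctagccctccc
Col3a1, chr1:45311288-45311537, plus strand: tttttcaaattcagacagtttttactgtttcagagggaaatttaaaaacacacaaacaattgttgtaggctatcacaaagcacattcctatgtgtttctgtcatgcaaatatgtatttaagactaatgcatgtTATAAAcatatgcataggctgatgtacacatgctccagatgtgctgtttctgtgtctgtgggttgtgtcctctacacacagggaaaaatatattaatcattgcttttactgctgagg
The gene positions given above are from GENCODE, where Col1a2 starts at 4504814, so the Col1a2 window lies inside that gene model. The Col3a1 window ends right before the GENCODE start of Col3a1. The Col1a2 window held 1 match to the CCAAT box, 2 to the GC box and 11 CpG pairs. The Col3a1 window held 1 match to the TATA box, none to the other motifs and 0 CpG pairs. RefSeq windows were at hand for 33 of the 40 genes, 36 windows in all. Of these windows 11.1% held the TATA box, 33.3% the CCAAT box and 58.3% the GC box, beside 12.4%, 33.8% and 32.7% of 32807 windows of all genes. The median CpG number was 10 in the collagen windows and 6 in all windows. A match describes the letters alone.

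Type V collagen takes part in starting fibrils and limiting their width. Its chains rose in siBcat. Col5a1 (chromosome 2, 27886425 to 28039514, plus strand) had 1931, 1912 and 1651 CPM in GSK126, 2785, 2632 and 2553 CPM in siBcat and 1932, 1906 and 1554 CPM in siCTL, so that siBcat alone stood clear of the others. It rose in siBcat against siCTL by 1.48-fold (log2 fold change 0.56 ± 0.09, edgeR adjusted p = 0.000256) and against GSK126 by 1.45-fold (adjusted p = 0.000289), with 0.03 ± 0.08 for GSK126 against siCTL (adjusted p = 0.842). Col5a3 (chromosome 9, 20770050 to 20815067, minus strand) followed at a lower level, with 155, 146 and 133 CPM in GSK126, 241, 235 and 227 CPM in siBcat and 194, 177 and 146 CPM in siCTL. It was higher in siBcat than in siCTL (0.44 ± 0.09, adjusted p = 0.00225) and than in GSK126 (0.69 ± 0.09, adjusted p = 6.58e-05). For GSK126 against siCTL it had -0.25 ± 0.09 (adjusted p = 0.061), which was called without siCTL replicate 3 (-0.36, adjusted p = 0.00543) or GSK126 replicate 1 (-0.31, adjusted p = 0.0485), by DESeq2 (0.0294) and with a replicate block, the replicate number as a term of the fit (0.0214).

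Col5a2 (chromosome 1, 45374321 to 45503282, minus strand) was the more abundant partner, at 2968, 2940 and 2632 CPM in GSK126, 3774, 3653 and 3675 CPM in siBcat and 3266, 3387 and 3225 CPM in siCTL. The groups did not overlap, and siCTL lay between the treatments. It fell in GSK126 (-0.21 ± 0.06, edgeR adjusted p = 0.0151) and rose in siBcat (0.17 ± 0.06, adjusted p = 0.0312), and the direct difference was 0.38 ± 0.06 (adjusted p = 0.000142). Both changes against siCTL were small and the calls fragile: the fall under GSK126 had an adjusted p of 0.0569 without siCTL replicate 2, and the rise under siBcat had 0.0722 to 0.14 without any 1 of the 6 siBcat and siCTL libraries and 0.0642 with library size scaling. Of the remaining fibrillar chains, Col11a2 had 2.79, 2.21 and 3.53 CPM in GSK126, 1.95, 2.75 and 1.75 CPM in siBcat and 2.31, 2.16 and 2.04 CPM in siCTL, and was not called in any comparison, save lower in siBcat than in GSK126 without siBcat replicate 2 (adjusted p = 0.0403). Col27a1 had 1.20, 2.16 and 1.75 CPM in GSK126, 0.974, 1.34 and 0.788 CPM in siBcat and 0.860, 0.926 and 0.594 CPM in siCTL. It rose in GSK126 against siCTL (1.09 ± 0.29, adjusted p = 0.0146), a call lost without GSK126 replicate 2 (adjusted p = 0.0527) or siCTL replicate 3 (0.0656). For siBcat against GSK126 Col27a1 had -0.70 ± 0.28 (adjusted p = 0.0584), and it was called lower in 6 of the 19 alternatives (0.0227 to 0.0437).

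Type IV collagen, the lattice of basement membranes, is mostly made of Col4a1 and Col4a2 chains, whose genes start head to head on chromosome 8 (11198423 to 11312826 on the minus strand and 11312805 to 11449287 on the plus strand). Their annotated starts overlap by 22 bases. This stretch is shown because both chains moved together, with a match to the GC box (GGGCGG) in capitals, and reads from it cannot be assigned to either gene unless strand was used.
Col4a1 and Col4a2, chr8:11312805-11312826, plus strand, GRCm38.p6: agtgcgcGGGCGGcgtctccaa
Col4a1 had 3160, 3043 and 2460 CPM in GSK126, 3971, 3723 and 3810 CPM in siBcat and 3176, 2957 and 2855 CPM in siCTL. Col4a2 had 2615, 2562 and 2165 CPM in GSK126, 3578, 3226 and 3383 CPM in siBcat and 2500, 2378 and 2178 CPM in siCTL. For both chains each siBcat library was above each other library, and GSK126 and siCTL overlapped. In siBcat against siCTL, Col4a1 rose by 1.28-fold (log2 fold change 0.36 ± 0.08, edgeR adjusted p = 0.00472) and Col4a2 by 1.44-fold (0.53 ± 0.08, adjusted p = 0.000169). Against GSK126 they were 1.33-fold and 1.39-fold higher in siBcat (adjusted p = 0.00154 and 0.000314). Under GSK126 their log2 fold changes were -0.05 ± 0.08 and 0.06 ± 0.08 (adjusted p = 0.67 and 0.62).

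The other type IV chains belong to the restricted networks of kidney, muscle and other tissues and were far less abundant, and none of them was called higher in siBcat by edgeR. Col4a5 (chromosome X, 141475385 to 141689234, plus strand) had 500, 492 and 360 CPM in GSK126, 382, 364 and 379 CPM in siBcat and 517, 499 and 505 CPM in siCTL. It fell in siBcat against siCTL by 1.35-fold (log2 fold change -0.44 ± 0.10, edgeR adjusted p = 0.00564). GSK126 replicate 3 lay at the siBcat level and the other GSK126 libraries near siCTL. For siBcat against GSK126 the adjusted p was 0.0524, and 1.32e-09 without GSK126 replicate 3 (log2 fold change -0.40). It was also called in 5 alternatives that kept each library (0.000551 to 0.0493), among them DESeq2 (0.0427). For GSK126 against siCTL it was called in 2 of the 19 alternatives, those with the length trend removed, without a replicate block (0.0438) or with it (0.038). Col4a6, which lies 1308 bases from Col4a5 in head-to-head order, had 3.14, 3.35 and 2.33 CPM in GSK126, 1.66, 1.54 and 1.97 CPM in siBcat and 2.08, 2.38 and 2.55 CPM in siCTL. It was lower in siBcat than in GSK126 (-0.77 ± 0.18, adjusted p = 0.00389) and not called against siCTL (-0.44 ± 0.18, adjusted p = 0.078), except without GSK126 replicate 3 (adjusted p = 0.0401). Col4a3 and Col4a4, head to head with 71 bases between them, stayed below 2 CPM. Col4a3 had 1.63, 1.06 and 0.892 CPM in GSK126, 0.779, 1.01 and 0.788 CPM in siBcat and 1.22, 1.72 and 1.40 CPM in siCTL, and its fall in siBcat against siCTL (-0.74 ± 0.27, adjusted p = 0.0451) was lost without any 1 of GSK126 replicate 2, the 3 siBcat libraries and siCTL replicates 2 and 3 (adjusted p = 0.0511 to 0.154), with a replicate block (0.0583) and with the block and the trend on coding length removed (0.0634). Among the 6 type IV chains, GSK126 against siCTL gave no call by edgeR (0 at an unadjusted p under 0.05 and 0 by DESeq2), where 25% of all genes were called. Of these chains 2 were higher and 2 lower in siBcat against siCTL, where 35.2% of all genes were called.

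Type VI collagen, which links cells to the surrounding matrix, is assembled from Col6a1, Col6a2 and Col6a3 chains, and all of these fell in GSK126. Col6a1 (chromosome 10, 76708792 to 76726168, minus strand) had 3635, 3535 and 3264 CPM in GSK126, 5255, 4905 and 5065 CPM in siBcat and 4790, 4866 and 4706 CPM in siCTL. Col6a2 (chromosome 10, 76595762 to 76623630, minus strand) had 2804, 2720 and 2503 CPM in GSK126, 5115, 4728 and 4821 CPM in siBcat and 3994, 3965 and 3402 CPM in siCTL. Each GSK126 library lay below each library of the other groups for both chains. In GSK126 against siCTL, Col6a1 fell by 0.46 ± 0.05 on the log2 scale (edgeR adjusted p = 6.08e-05) and Col6a2 by 0.50 ± 0.07 (adjusted p = 0.000222). In siBcat against siCTL, Col6a2 rose (0.37 ± 0.07, adjusted p = 0.00123), while Col6a1 had 0.08 ± 0.05 (adjusted p = 0.254), or 0.08 with an adjusted p of 0.026 without GSK126 replicate 3. It was also called in a fit of the 2 groups alone (0.0304) and with the trend on coding length removed (0.13, adjusted p = 0.0075). Between the treatments both were higher in siBcat, Col6a1 by 1.46-fold (adjusted p = 5.55e-06) and Col6a2 by 1.83-fold (adjusted p = 8.33e-07).

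Col6a3 (chromosome 1, 90765923 to 90843971, minus strand), the longest chain of type VI, had 4040, 4152 and 2727 CPM in GSK126, 5865, 5216 and 5776 CPM in siBcat and 5300, 5081 and 5051 CPM in siCTL. GSK126 libraries were again lowest, with replicate 3 far below the other 2. Col6a3 fell in GSK126 against siCTL by 1.41-fold (log2 fold change -0.50 ± 0.13, edgeR adjusted p = 0.0219), a call lost without siCTL replicate 1 (adjusted p = 0.0591), siCTL replicate 2 (0.0505), siCTL replicate 3 (0.0603) or with no filter on low counts (0.0696). Without GSK126 replicate 3 the log2 fold change was -0.33 and still called. In siBcat against siCTL it had 0.13 ± 0.13 (adjusted p = 0.495), and 0.13 with an adjusted p of 0.0119 without GSK126 replicate 3. This was called too in a fit of the 2 groups alone (0.0246) and with the trend on coding length removed (0.21, adjusted p = 0.00136). It was higher in siBcat than in GSK126 (0.63 ± 0.13, adjusted p = 0.00389). Col6a4 had 0.459, 0.413 and 0.660 CPM in GSK126, 0, 0.202 and 0.263 CPM in siBcat and 0.543, 0.661 and 0.721 CPM in siCTL, and fell in siBcat against siCTL (-1.99 ± 0.55, adjusted p = 0.0134) from a few counts per library. It was also lower in siBcat than in GSK126 (-1.66 ± 0.56, adjusted p = 0.0304), a call lost without GSK126 replicates 1 or 3 or siBcat replicates 1 or 2 (adjusted p = 0.0501 to 0.0598) and in a fit of the 2 groups alone (0.0609).

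Type VIII collagen forms hexagonal lattices from Col8a1 and Col8a2 chains, and these moved in opposite directions under GSK126. Col8a1 (chromosome 16, 57624258 to 57754737, minus strand) had 361, 364 and 288 CPM in GSK126, 392, 383 and 401 CPM in siBcat and 646, 635 and 650 CPM in siCTL. Both treatments lay well below siCTL and did not overlap with each other. Col8a1 was 1.91-fold lower in GSK126 than in siCTL (log2 fold change -0.93 ± 0.08, edgeR adjusted p = 3.28e-06) and 1.64-fold lower in siBcat (-0.72 ± 0.08, adjusted p = 1.29e-05). The small difference between treatments (0.21 ± 0.08 for siBcat against GSK126, adjusted p = 0.0373) lost its call without any 1 of the 3 siBcat or 3 siCTL libraries (adjusted p = 0.0501 to 0.115) with library size scaling (0.102) and in a fit of the 2 groups alone (0.0581).

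Col8a2 (chromosome 4, 126286793 to 126314330, plus strand) had 4.35, 3.35 and 4.19 CPM in GSK126, 1.12, 1.30 and 1.84 CPM in siBcat and 0.950, 0.749 and 1.27 CPM in siCTL. The GSK126 libraries stood clear, and siBcat and siCTL overlapped. Col8a2 was 3.99-fold higher in GSK126 than in siCTL (log2 fold change 2.00 ± 0.22, edgeR adjusted p = 3.91e-05), and 2.79-fold lower in siBcat than in GSK126 (-1.48 ± 0.21, adjusted p = 0.000128). For siBcat against siCTL it had 0.52 ± 0.25 (adjusted p = 0.123, or 0.037 with the replicate block and the trend on coding length removed). Col8a2 remained a minor chain: per kb of coding length it averaged 0.915 CPM in GSK126, 0.327 in siBcat and 0.229 in siCTL, against 66.1, 76.7 and 126 for Col8a1. Col7a1, the chain of anchoring fibrils, had 3.29, 2.89 and 5.82 CPM in GSK126, 3.12, 2.79 and 2.85 CPM in siBcat and 3.30, 2.25 and 3.57 CPM in siCTL and was not called in any comparison.

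The upstream windows of the type VIII pair are shown because the chains of 1 lattice moved apart, with the same marks as above.
Col8a1, chr16:57754738-57754987, minus strand: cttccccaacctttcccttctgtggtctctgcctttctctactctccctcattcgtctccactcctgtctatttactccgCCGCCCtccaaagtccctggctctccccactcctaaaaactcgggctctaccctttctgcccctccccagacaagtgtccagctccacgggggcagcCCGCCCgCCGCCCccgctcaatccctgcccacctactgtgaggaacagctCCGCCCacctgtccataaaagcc
Col8a2, chr4:126286544-126286793, plus strand: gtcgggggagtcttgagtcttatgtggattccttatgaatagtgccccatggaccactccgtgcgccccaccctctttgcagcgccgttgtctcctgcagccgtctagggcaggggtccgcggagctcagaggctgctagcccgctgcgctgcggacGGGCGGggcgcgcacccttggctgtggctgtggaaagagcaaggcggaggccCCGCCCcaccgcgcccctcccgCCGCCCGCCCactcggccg
Both windows held 4 matches to the GC box and none to the other motifs. The Col8a2 window held 24 CpG pairs and the Col8a1 window 10.

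FACIT collagens coat fibrils and bridge them to other matrix. Col12a1 (chromosome 9, 79598991 to 79718831, minus strand) had 1096, 1165 and 695 CPM in GSK126, 1244, 1157 and 1196 CPM in siBcat and 872, 929 and 881 CPM in siCTL. GSK126 replicate 3 lay below each siCTL library and the other GSK126 libraries above them. Col12a1 was not called for GSK126 against siCTL (log2 fold change 0.14 ± 0.16, edgeR adjusted p = 0.55) or for siBcat against siCTL (0.42 ± 0.16, adjusted p = 0.0628). Without GSK126 replicate 3, it was called in both, with 0.34 (adjusted p = 5.57e-07) and 0.42 (adjusted p = 1.38e-09). With that library kept, GSK126 against siCTL was called with the trend on coding length removed (0.25, adjusted p = 0.00407), as was siBcat against GSK126 (0.26, adjusted p = 0.00179). The siBcat rise over siCTL was called in 6 further alternatives (adjusted p = 3.06e-09 to 0.048), among them DESeq2 (0.00927), a replicate block (0.0289) and a fit of the 2 groups alone.

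That library stood apart by gene length. The trend on coding length took 21.4% of the variance, over all genes tested, of its deviations from its group mean, against 7.03% and 9.24% in the other GSK126 libraries and 0.053 to 0.69% in the siBcat and siCTL libraries. The group mean includes each library, so the deviations within a group cancel out. The values of the other GSK126 libraries are therefore not independent of replicate 3. Col12a1 (11659 bases) and Col6a3 (10841 bases), the longest abundant chains, were 0.70 and 0.59 lower on the log2 scale in GSK126 replicate 3 than in the other GSK126 libraries. The shortest abundant chains, Col6a2 (3729 bases) and Col6a1 (3976 bases), differed by -0.14 and -0.14. Chains of lengths between these did not all follow length. Col5a1 (8402 bases) differed by -0.22, Col4a5 (6491 bases) by -0.46, Col8a1 (5110 bases) by -0.33 and Col16a1 (5206 bases) by 0.06. The alternatives with the length trend removed are not a correction of this library alone. They used deviations from the mean of all 9 libraries, which also takes out group differences that follow length. The part of GSK126 replicate 3 in each GSK126 value was not tested beyond the values given without it.

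**Figure D3:**
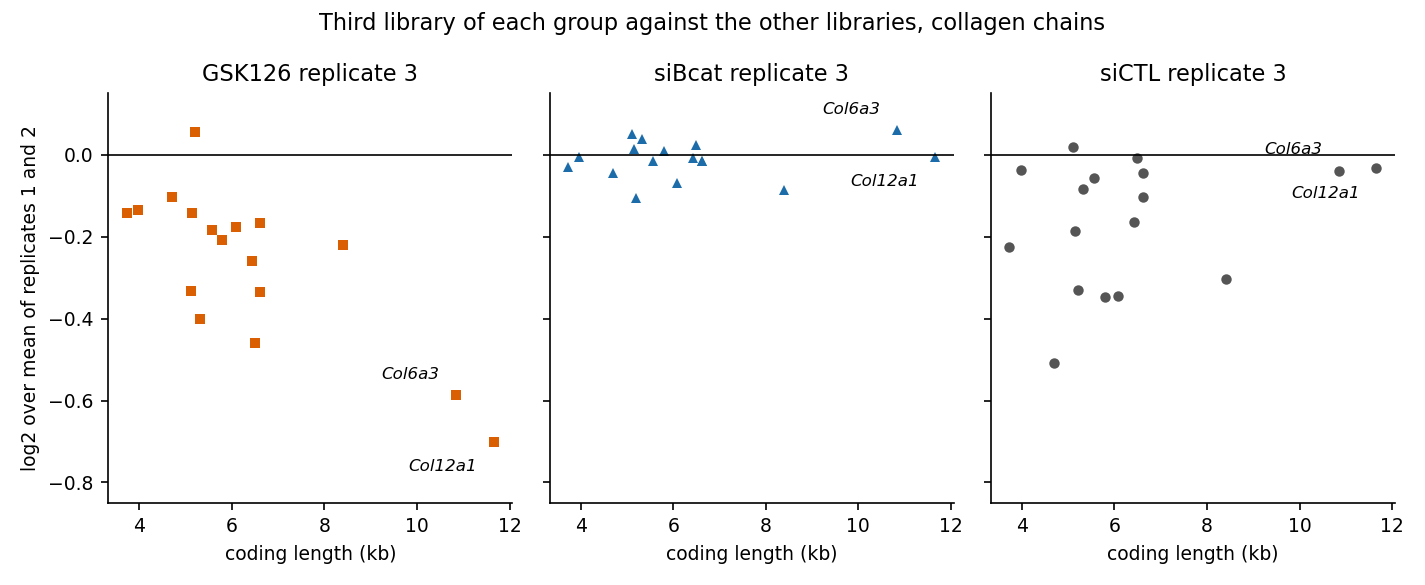
Log2 level of replicate 3 over the mean of replicates 1 and 2 in GSK126, siBcat and siCTL, against coding length in kb, for the 17 chains with at least 10 CPM in siCTL, 1 point per chain. In GSK126 the longest chains, Col6a3 and Col12a1, lie at -0.59 and -0.70, while in siBcat and siCTL they lie near 0. The remaining chains in GSK126 range from -0.46 (Col4a5) to 0.06 (Col16a1) and do not all follow length. In siCTL Col1a1 lies lowest at -0.51, followed by Col18a1 (-0.346), Col5a3 (-0.345), Col16a1 (-0.329) and Col5a1 (-0.304), and Col8a1 lies highest at 0.02.

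Col16a1 (chromosome 4, 130047840 to 130099283, plus strand) had 255, 244 and 260 CPM in GSK126, 228, 229 and 213 CPM in siBcat and 318, 317 and 253 CPM in siCTL. The siBcat libraries were lowest, and siCTL replicate 3 lay within the GSK126 range. Col16a1 fell in siBcat against siCTL by 1.33-fold (log2 fold change -0.41 ± 0.08, edgeR adjusted p = 0.00146), a call lost with the replicate block and the length trend removed together (0.0805). For GSK126 against siCTL it had -0.23 ± 0.08 (adjusted p = 0.0518), and -0.33 with an adjusted p of 0.00176 without siCTL replicate 3, and was called in 4 alternatives that kept each library (0.0223 to 0.0499). For siBcat against GSK126 it had -0.18 ± 0.08 (adjusted p = 0.0815), and -0.18 with an adjusted p of 0.0131 without siCTL replicate 3, and was called with library size scaling (0.0172) and in a fit of these groups alone (0.0342). Col20a1 had 1.24, 1.56 and 1.82 CPM in GSK126, 2.48, 1.82 and 2.32 CPM in siBcat and 1.63, 1.28 and 1.19 CPM in siCTL. It rose in siBcat against siCTL (0.69 ± 0.21, adjusted p = 0.0209), a call lost without siBcat replicate 1 (0.0809), siBcat replicate 3 (0.0648), siCTL replicate 2 (0.0749) or siCTL replicate 3 (0.0742). For siBcat against GSK126 Col20a1 had 0.52 ± 0.20 (adjusted p = 0.0582), and it was called higher in 4 of the 19 alternatives (0.0216 to 0.0445). Col14a1 had 1.03, 0.919 and 0.660 CPM in GSK126, 0.341, 0.202 and 0.175 CPM in siBcat and 0.272, 0.573 and 0.255 CPM in siCTL. Its rise in GSK126 against siCTL (1.24 ± 0.37, adjusted p = 0.029) was lost without GSK126 replicates 1 or 2 or siCTL replicates 1 or 3 (adjusted p = 0.0634 to 0.116), and it was lower in siBcat than in GSK126 (-1.87 ± 0.40, adjusted p = 0.00245).

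The multiplexins, basement-membrane proteoglycan collagens whose ends can be released as fragments that act on vessels, gave the largest rise and, among chains above 2 CPM, the largest fall in siBcat against siCTL. Col15a1 (chromosome 4, 47208161 to 47313167, plus strand) had 21.3, 21.5 and 16.2 CPM in GSK126, 100, 92.0 and 98.7 CPM in siBcat and 24.3, 19.9 and 20.8 CPM in siCTL. Each siBcat library was far above each other library. Col15a1 in siBcat was 4.48-fold above siCTL (log2 fold change 2.16 ± 0.11, edgeR adjusted p = 2.81e-08) and 4.94-fold higher than in GSK126 (2.31 ± 0.11, adjusted p = 9.89e-09), with -0.14 ± 0.11 for GSK126 against siCTL (adjusted p = 0.352). Col18a1 (chromosome 10, 77052178 to 77166548, minus strand) went the other way, with 84.5, 80.9 and 71.6 CPM in GSK126, 28.9, 29.6 and 29.5 CPM in siBcat and 76.8, 79.4 and 61.5 CPM in siCTL. Col18a1 in siBcat was 2.47-fold below siCTL (-1.31 ± 0.09, adjusted p = 4.79e-07) and 2.69-fold below GSK126 (-1.43 ± 0.09, adjusted p = 1.37e-07), with 0.12 ± 0.09 for GSK126 against siCTL (adjusted p = 0.344). These siBcat calls held in all 19 alternatives.

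The Col15a1 window, which precedes the start of the chain that rose most, held none of the searched letters and is therefore all in lower case.
Col15a1, chr4:47207762-47208011, plus strand: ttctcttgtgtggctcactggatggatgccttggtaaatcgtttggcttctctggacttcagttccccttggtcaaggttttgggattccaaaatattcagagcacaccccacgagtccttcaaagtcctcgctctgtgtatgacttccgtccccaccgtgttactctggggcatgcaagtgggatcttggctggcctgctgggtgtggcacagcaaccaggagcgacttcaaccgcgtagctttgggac
It held 8 CpG pairs.

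Col28a1, a chain of type XXVIII outside the other classes, rose under both treatments, with 8.13, 7.40 and 7.57 CPM in GSK126, 6.82, 6.11 and 5.38 CPM in siBcat and 3.85, 5.03 and 4.46 CPM in siCTL. GSK126 was highest and siCTL lowest without overlap. The log2 fold change against siCTL was 0.79 ± 0.12 for GSK126 (edgeR adjusted p = 0.000524) and 0.46 ± 0.13 for siBcat (adjusted p = 0.0131), and the siBcat call was lost without siBcat replicate 1 (0.0684) or siCTL replicate 1 (0.0594). Its level in siBcat was below that in GSK126 (-0.34 ± 0.12, adjusted p = 0.0397), a call lost without GSK126 replicates 1 or 2, siBcat replicates 2 or 3 or siCTL replicate 3 (adjusted p = 0.0514 to 0.167). With all libraries kept it was lost too by DESeq2 (0.0536), with a replicate block (0.0556), with the trend on coding length removed (0.0559) and with both (0.0746).

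Among the tested chains below 2 CPM in each group mean, Col4a4, Col9a3, Col22a1, Col17a1 and Col23a1 were not called in any comparison. For Col22a1 this depended on the fit. It was called lower in GSK126 than in siCTL without GSK126 replicate 1 (adjusted p = 0.0356). It was called lower in siBcat than in siCTL without GSK126 replicates 1 or 3 (0.0325 and 0.0311), and also with all libraries kept, in a fit of these 2 groups alone (0.0142), with a replicate block (0.0284) and with the block and the trend on coding length removed (0.024). The 8 chains not tested were Col24a1, Col6a5, Col6a6, Col9a1, Col9a2, Col19a1, Col13a1 and Col25a1, with at most 28 counts in a library. Col13a1, a transmembrane collagen, had 0 counts in all 9 libraries.

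Set per length, the make-up of the collagen transcripts differed between the groups. Fibrillar chains made up 68.2 ± 1.0% in GSK126, 56.1 ± 0.1% in siBcat and 63.5 ± 1.3% in siCTL (SD, n = 3 libraries each). Network chains, a class that here holds types VI, VII and VIII, made up 20.9 ± 0.4%, 30.9 ± 0.1% and 26.6 ± 1.0% in the same order. Type IV chains, a class of their own, made up 9.29 ± 0.52%, 11.3 ± 0.01% and 8.46 ± 0.36%. Most of the network share was type VI. In siBcat, Col6a1, Col6a2 and Col6a3 averaged 1276, 1311 and 518 CPM per kb, beside 76.7 for Col8a1. Groups did not overlap for fibrillar or network chains. With 3 against 3 libraries the exact two-sided permutation p cannot go below 0.1, and it was 0.1 in each comparison of these classes save type IV chains between GSK126 and siCTL, at 0.2, where the libraries overlapped. Shares sum to a fixed total, so a lower share of 1 class raises the others. Col3a1 alone made up 5.27 to 5.32% in GSK126, 7.10 to 7.33% in siBcat and 10.2 to 11.4% in siCTL.

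**Figure D4:**
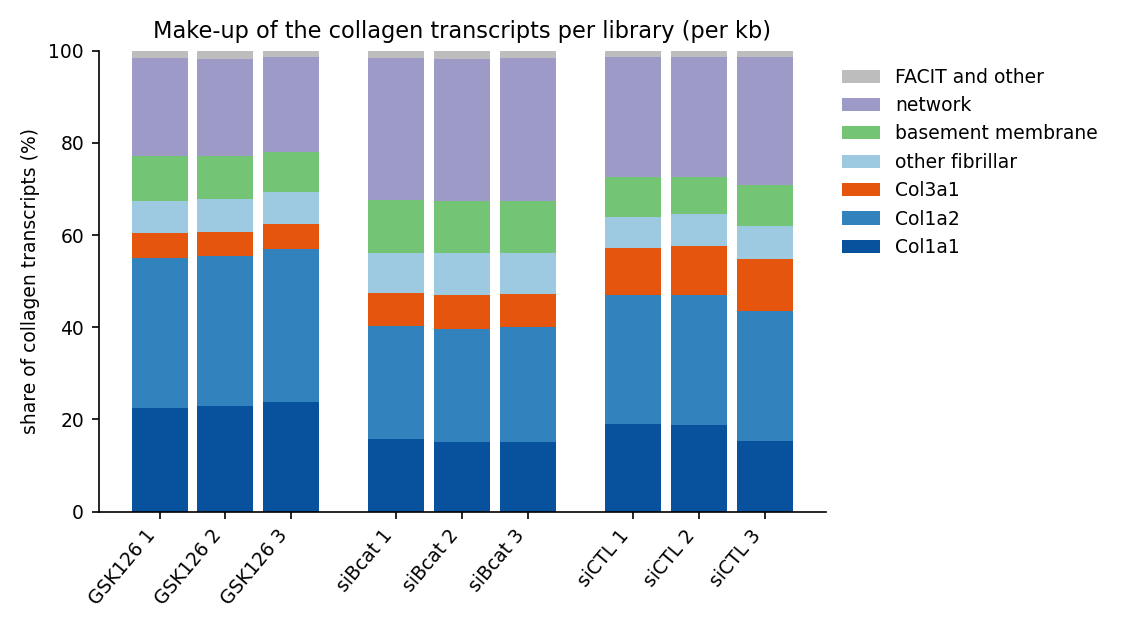
Share of the summed collagen level (CPM per kb of coding length, in %) taken by Col1a1, Col1a2, Col3a1, the other fibrillar chains, basement membrane, network and the remaining classes in each of the 9 libraries. Col3a1 takes about 5% in GSK126, 7% in siBcat and 10 to 11% in siCTL, and network chains take 21% in GSK126 and 31% in siBcat. Network chains are types VI, VII and VIII, most of it type VI, and type IV is shown as basement membrane.

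Chains that assemble together or mix in 1 fibril were compared as ratios per length within a library, which cancel the scaling between libraries. A trend on coding length within a library is not cancelled. Of 10 planned pairs, 8 could be computed. The Col3a1 to Col1a1 ratio was 0.236, 0.231 and 0.221 in GSK126, 0.453, 0.488 and 0.479 in siBcat and 0.539, 0.562 and 0.752 in siCTL. It did not overlap between groups, and siCTL replicate 3, where Col1a1 was low, had the highest ratio. The Col8a1 to Col8a2 ratio was 58.2 to 92.1 in GSK126, 185 to 296 in siBcat and 432 to 719 in siCTL, also without overlap. Smaller shifts were seen within type VI and type V trimers. The Col6a1 to Col6a2 ratio was 1.22 in each GSK126 library, 0.964 to 0.985 in siBcat and 1.13 to 1.30 in siCTL, so that under GSK126 these chains fell in step while under siBcat their balance shifted towards Col6a2. Col6a3 to Col6a2, chains of unlike length, was 0.496, 0.525 and 0.375 in GSK126, 0.380 to 0.412 in siBcat and 0.441 to 0.511 in siCTL. Col5a1 to Col5a2 was 0.494 to 0.512 in GSK126, 0.547 to 0.581 in siBcat and 0.379 to 0.466 in siCTL. Col5a3 to Col5a1 was 0.1057 to 0.1115 in GSK126, 0.120 to 0.123 in siBcat and 0.128 to 0.139 in siCTL. The head-to-head pair Col4a1 to Col4a2 had ratios of 1.10 to 1.17 in GSK126, 1.08 to 1.12 in siBcat and 1.21 to 1.27 in siCTL. Both treatments thus lay below siCTL without overlap, by 0.11 (GSK126) and 0.17 (siBcat) on the log2 scale. Col1a1 to Col1a2 was 0.693 to 0.719 in GSK126, 0.599 to 0.636 in siBcat and 0.538 to 0.677 in siCTL. The exact permutation p was at the smallest possible value, 0.1, where groups did not overlap.

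**Figure D5:**
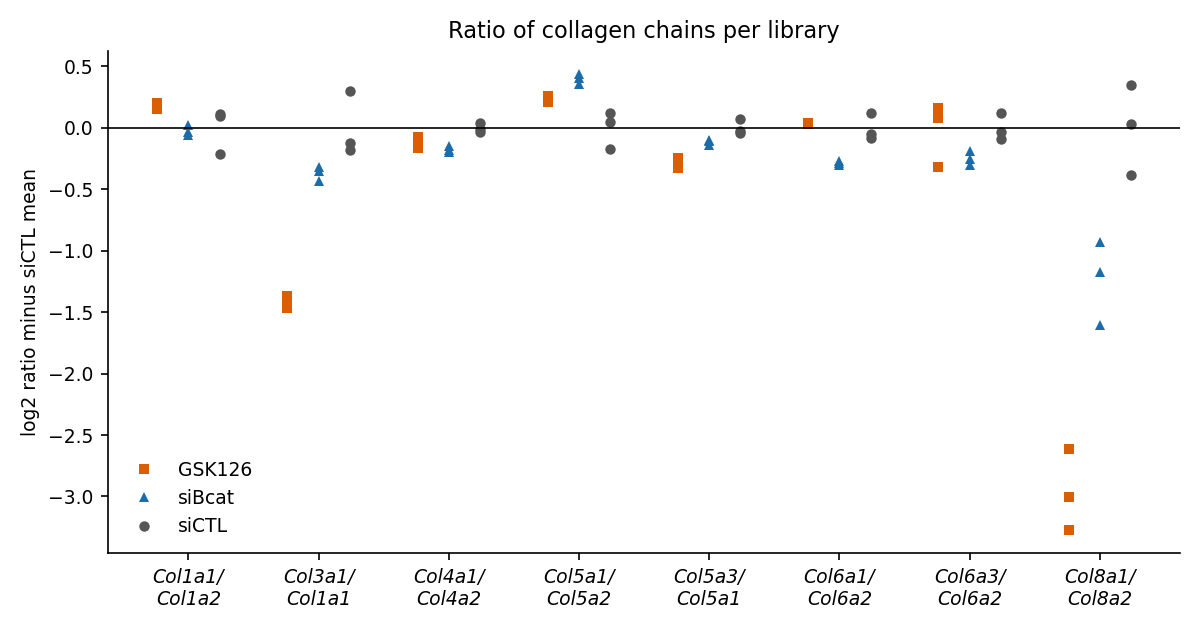
Log2 ratio of 8 chain pairs per library (CPM per kb of coding length), minus the mean of the 3 siCTL libraries, 1 point per library for GSK126, siBcat and siCTL. Col8a1/Col8a2 and Col3a1/Col1a1 lie farthest below 0 in GSK126, and Col6a1/Col6a2 is lower in each siBcat library than in any other library.

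Before it leaves the cell, procollagen is hydroxylated, glycosylated and folded. Of 18 tested genes for these steps, 11 were higher and 3 lower under siBcat against siCTL (beside 17.7% and 17.5% of all genes), with a median log2 fold change of 0.16 beside 0.00 for all genes. The 4 with the smallest edgeR adjusted p were Plod2, the chaperone Fkbp14, Plod3 and the galactosyltransferase Glt25d1. Plod2, which hydroxylates the telopeptide lysines used for crosslinks, fell (-0.49 ± 0.05, adjusted p = 8.53e-06), as did Glt25d1 (-0.32 ± 0.05, adjusted p = 0.000294). Fkbp14 (0.43 ± 0.05, adjusted p = 3.39e-05) and Plod3 (0.35 ± 0.05, adjusted p = 0.000261) rose. In GSK126 against siCTL 3 were higher and 2 lower (beside 14.3% and 10.7% of all genes), led by Plod1 (-0.36 ± 0.05, adjusted p = 0.000286), Leprel1 (-0.47 ± 0.10), Leprel4 (0.25 ± 0.06) and Tmem38b (0.30 ± 0.09). In siBcat against GSK126, 9 were higher and 2 lower (beside 19.3% and 21.9% of all genes). The collagen chaperone Serpinh1 averaged 1014 CPM in GSK126, 1047 CPM in siBcat and 969 CPM in siCTL and was not called against siCTL in either treatment.

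Of 11 tested genes for secretion and for trimming of procollagen ends, none was called higher by edgeR and 5 were lower in GSK126 than in siCTL (1 higher at an unadjusted p under 0.05, Pcolce2, and 0 higher by DESeq2), where 10.7% of all genes were called lower. Those lower were the propeptidases Adamts14 (log2 fold change -0.91 ± 0.09, edgeR adjusted p = 1.86e-05) and Bmp1 (-0.34 ± 0.05, adjusted p = 0.000318), and Mia3, Sec23a and Sec24d of the export machinery for large cargo, at -0.27, -0.27 and -0.23. In siBcat against siCTL 3 were higher and 2 lower, 5 of 11 beside 35.2% of all genes called. Sec23a (0.50 ± 0.06, adjusted p = 3.06e-05) and the transcription factor Creb3l1 (0.31 ± 0.06, adjusted p = 0.0017) rose, and Adamts14 fell (-0.55 ± 0.09, adjusted p = 0.000523). In siBcat against GSK126, 7 were higher and 1 lower, 8 of 11 beside 41.2% of all genes.

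Crosslinking enzymes differed from each other. The lysyl oxidase Lox, by far the most abundant at 7320 CPM in GSK126, 6174 CPM in siBcat and 6202 CPM in siCTL, rose in GSK126 against siCTL (0.24 ± 0.08, edgeR adjusted p = 0.0401), while Loxl3 fell (-0.39 ± 0.05, adjusted p = 9.38e-05). Lox had 7722, 7979 and 6259 CPM in GSK126 libraries and 6012, 6416 and 6179 CPM in siCTL libraries. GSK126 replicate 3 thus lay within the siCTL range for Lox. In siBcat against siCTL, Loxl3 rose (0.63 ± 0.05, adjusted p = 9.44e-07) and Loxl2 rose (0.48 ± 0.17, adjusted p = 0.0412), and the transglutaminase Tgm2 fell (-1.90 ± 0.08, adjusted p = 5.55e-09), as did Pxdn, the peroxidase that crosslinks type IV collagen (-0.92 ± 0.11, adjusted p = 0.000131). In siBcat against GSK126, 2 of the 7 enzymes were higher and 3 lower, beside 41.2% of all genes called.

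Among 11 tested proteins that bind fibrils, 3 were higher and 6 lower in siBcat (35.2% of all genes called), and 2 higher and 3 lower in GSK126 (25% of all genes called), each against siCTL. Ogn fell in both, averaging 453 CPM in GSK126, 222 CPM in siBcat and 615 CPM in siCTL (edgeR adjusted p = 0.000241 and 4.74e-09 against siCTL). Thbs2, a matricellular protein, averaged 3302 CPM in GSK126, 3192 CPM in siBcat and 5857 CPM in siCTL, and fell in both (adjusted p = 6.09e-06 and 1.68e-06). Thbs1 rose in siBcat (0.52 ± 0.07, adjusted p = 0.000109). Decorin (Dcn), which regulates fibril width, fell in both treatments, with 1.85, 0.812 and 3.86 CPM in GSK126, siBcat and siCTL. Prelp rose under GSK126 (1.87 ± 0.23, adjusted p = 9.5e-05) at a low level, with 2.73, 1.22 and 0.746 CPM in GSK126, siBcat and siCTL. In siBcat against GSK126, 2 were higher and 6 lower, beside 41.2% of all genes called.

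Of 8 tested collagen receptors, GSK126 had 3 higher and 4 lower than siCTL, and siBcat had 3 higher and none called lower than siCTL by edgeR (Itgb1 lower at an unadjusted p under 0.05 and by DESeq2). Of all genes, 25% and 35.2% were called in these comparisons. The integrin subunit Itga11, a receptor for fibrillar collagen, rose in both (0.59 ± 0.10 in GSK126, edgeR adjusted p = 0.00109, and 0.81 ± 0.10 in siBcat, adjusted p = 5.91e-05). Itga10 went in opposite directions, with -0.72 ± 0.07 in GSK126 (adjusted p = 8.12e-06) and 0.71 ± 0.06 in siBcat (adjusted p = 3.29e-06), and differed by 1.43 ± 0.07 between siBcat and GSK126 (adjusted p = 7.06e-09). Of 7 tested genes for degradation and its inhibitors, 2 were higher and 2 lower in GSK126, and 2 higher and 4 lower in siBcat, against siCTL, beside the same 25% and 35.2% of all genes. The collagenase Mmp13 (1.06 ± 0.07, adjusted p = 1.3e-07) and the inhibitor Timp1 (1.27 ± 0.08, adjusted p = 3.01e-07) rose in siBcat, and the membrane collagenase Mmp14 fell (-0.48 ± 0.05, adjusted p = 1.5e-05). In GSK126, Timp3 rose (0.56 ± 0.08, adjusted p = 0.000315) and Timp1 fell (-0.31 ± 0.08, adjusted p = 0.0182). In siBcat against GSK126, 2 receptors were higher and 1 lower, and 2 degradation genes were higher and 3 lower, beside 41.2% of all genes called.

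Type IV collagen shares the basement membrane with laminins, nidogens and perlecan. Of 11 such genes tested and reported here, 6 were lower in siBcat than in siCTL, beside 17.5% of all genes. Lamb1 fell (-0.36 ± 0.05, edgeR adjusted p = 0.000184), as did Lama3 (-1.57 ± 0.25, adjusted p = 0.000429) and Lama1 (-0.55 ± 0.11, adjusted p = 0.00225). The level of Lama3 was low, at 1.67 CPM in siBcat and 4.93 CPM in siCTL. In GSK126 against siCTL 2 of the 11 were higher and 1 lower (25% of all genes called), with Lama1 higher (0.62 ± 0.11, adjusted p = 0.00148) and Lamb1 lower (-0.57 ± 0.05, adjusted p = 8.21e-06). In siBcat against GSK126, 1 was higher and 5 lower, beside 41.2% of all genes called.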

How the data were processed

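RNA sequencing counts of 9 libraries were used, 3 in each of 3 groups that follow the sample titles. The submitters' processing notes name bcl2fastq, TopHat2 2.0.6, HTSeq and the mm10 build, without their order, and no source used here gives the gene annotation. The authors deposited raw counts per gene, all even (0 odd values), and per the file headers a coding length in bases, used to set levels per kb. Whether reads were counted by strand is not given, so overlapping genes cannot be told apart. Another 6 columns of per-sample values, of a combined treatment, were not used.

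Tests used edgeR 4.0.16 under R 4.3.3. Genes were kept by filterByExpr with a minimum count of 10 and a total of at least 15, libraries were scaled by TMM, and the fit was a robust quasi-likelihood model over all 9 libraries with group as the only term. Adjustment by Benjamini-Hochberg ran over the 13240 genes tested, with 0.05 as threshold. The common biological coefficient of variation was 8.12%. Levels are CPM after TMM scaling, and ± is the SE of a log2 fold change unless SD is named. On simulated counts the procedure was tested with 200 changed genes. Ratios and shares were compared by exact two-sided permutation tests in scipy 1.17.1. Positions come from GENCODE M21 (GRCm38) and upstream sequences from RefSeq (GRCm38.p6), each without use of the other's starts.

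The members and gene lists were chosen with earlier results of these data known. Each chain with a mean of at least 2 CPM in a group is named with values, the others by range or count except where called, and each partner list by up to 4 genes with the smallest adjusted p, with Serpinh1 also named after its values were seen. In the list of laminins, nidogens and perlecan, 1 gene is not reported here and enters none of that list's counts. Alternatives were DESeq2 1.42.0 and its size factors, library size alone, other filters, only the 2 groups compared, a replicate block, a removed coding length trend (loess, span 0.5), halved counts and each library left out, 19 in all. The removed trend was fitted to the deviations of each library from the mean of all 9 libraries. Differences between groups that follow length were therefore removed as well. The percentages of variance on length are from another fit, to deviations from the group mean.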

Additional observations from a re-analysis of the deposited data

How the results depend on the processing

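Over the 19 alternatives no called chain changed direction. For GSK126 against siCTL the 10 calls (4 higher, 6 lower) came to 8 to 11 with 1 library left out (2 to 5 higher, 4 to 8 lower) and 9 to 12 otherwise; the higher count was 2 without GSK126 replicate 2 and 2 without siCTL replicate 3. For siBcat against siCTL the 17 calls came to 13 to 22 with 1 library left out (6 to 12 higher, 6 to 10 lower) and 17 to 21 otherwise, and for siBcat against GSK126 the 19 calls came to 17 to 20 (10 to 12 higher, 7 to 9 lower) and 18 to 22. With counts halved the numbers were 11, 17 and 19, with DESeq2 12, 18 and 20, and with the coding length trend removed 12, 20 and 22. Over all genes, higher and lower calls were 1892 and 1419, 2346 and 2320, and 2549 and 2901 in the main fit. With counts halved they were 1887 and 1462, 2321 and 2313, and 2535 and 2871. By DESeq2 they were 1895 and 1750, 2456 and 2362, and 2726 and 2778. With the length trend removed they were 1763 and 2557, 3089 and 2485, and 3981 and 2653. Without GSK126 replicate 3, where siBcat against siCTL had 22 chains called, all genes had 3202 and 3118.

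Samples that share a replicate number did not deviate together (correlations of -0.0306 to 0.0688), so the numbers were not taken to pair them. With a replicate block the calls were 11 for GSK126 against siCTL, 18 for siBcat against siCTL and 19 for siBcat against GSK126, and with the block and the length trend removed 12, 20 and 22. Over all genes, the block gave 1786 higher and 1349 lower, 2278 and 2236, and 2486 and 2781. With the block and the length trend removed, all genes had 1739 and 2577, 3104 and 2455, and 4017 and 2614.

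Chains below 2 CPM rest on few counts. The libraries of 1 group number 3, so ratios and shares could not reach an exact p below 0.1.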
